A study of Mus musculus with 6 samples.

Results

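The immediate-early genes *Fos*, *Fosb*, *Fosl2*, *Jun*, *Junb*, *Egr1*, *Atf3*, *Nr4a1*, *Ier2* and *Dusp1* were examined in mouse pancreatic islets with and without the deadenylase gene *Parn* in β cells. The 10 genes were taken by their symbols from the expression table of 55060 genes, where each symbol matched 1 row. Islet RNA had been sequenced in 3 samples per genotype, Ctrl and cKO, all from mice aged 12 weeks. The cKO mice carried *Ins2-Cre* together with *Parn* f/f, so that exon 7 of *Parn* between the loxP sites is removed in cells that use the *Ins2* promoter. *Parn* f/f mice and other littermates formed the Ctrl group, and the sources used here do not say which of them gave each sample or whether a Ctrl sample carried *Ins2-Cre*. The islets were freed with collagenase P and picked by hand, and they also hold α, δ, vascular and other cells, which do not use the *Ins2* promoter. The study describes culture of isolated islets in medium with fetal bovine serum. Whether, or for how long, the islets for RNA sequencing were cultured is not stated. The sources do not tie a sample to 1 animal or to a pool, so that p-values measure the spread between these samples only.

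Immediate-early genes are switched on within minutes of a stimulus by transcription factors that already wait in the cell, with no need for new protein. In β cells, glucose, calcium entry and cAMP are known inducers, and handling or enzymatic digestion of a tissue is a well-known inducer in many cell types. Their transcripts are short-lived, because AU-rich elements in the 3′ untranslated region (3′ UTR) recruit proteins that shorten the poly(A) tail and start decay. PARN is an exonuclease that removes poly(A) tails, which makes these unstable transcripts a natural group to look at when *Parn* is deleted.

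The AU-rich pentamer, ATTTA in the letters of DNA, was found in the 3′ UTR of 9 of the 10 genes, in the GENCODE transcripts of GRCm38. It was absent from that of *Ier2*. Among the 3′ UTRs of 14630 protein-coding genes tested here, 65.6% held the pentamer. At least 3 pentamers were present in 6 of the 10 genes and in 34.1% of all. The nonamer TTATTTATT, a stricter form of the element that holds the pentamer within it, was present in *Fos*, *Fosl2* and *Dusp1*, 3 of 10, and in 7.16% of all. The following stretches show what such elements look like. Each is the window of 30 bases with the most pentamers in its 3′ UTR and, among those, the most A and T, read 5′ to 3′ on the strand of the transcript, with the pentamers in capitals.
Fos: tttttattgtgttttcaATTTATTTAttaa
Fosl2: ATTTAttttattATTTAttttaaatgttta
Dusp1: tcatgggagctggtccttATTTATTTAaca
Jun: ATTTAtaatcataggaaagATTTAgtaatt
Nr4a1: ATTTAtatttgtgtattttcctggATTTAt
Junb: atattgaatataatatatttgtgtATTTAa
Atf3: ttttctgtaagagaaaatattacttATTTA
Fosb: agctATTTAtccctttcctggttcccaaaa
The *Fos* stretch lies at chr12:85477094-85477123 on the plus strand and starts 636 bases after the stop codon. The stretch of *Dusp1* lies at chr17:26506164-26506193 on the minus strand, 87 bases after the stop codon, and that of *Jun* at chr4:95049204-95049233 on the minus strand, within the single exon of the gene. Those of *Fosl2* and *Nr4a1* lie at chr5:32156871-32156900 and chr15:101274702-101274731 on the plus strand. On the minus strand, that of *Junb* lies at chr8:84977138-84977167, that of *Atf3* at chr1:191170350-191170379 and that of *Fosb* at chr7:19303317-19303346. In *Fos* and *Dusp1* the pentamers overlap, so that 2 of them share an A. The single pentamer of *Fosb* lies in a stretch with 60.0% A and T, against 96.7% in *Fosl2* and 90.0% in *Fos*. Per kilobase of 3′ UTR, *Dusp1* held 5.80 pentamers, *Nr4a1* 5.52 and *Fos* 4.91, above the value of 95.2%, 94.8% and 92.9% of the 3′ UTRs compared. *Fosl2* held the most pentamers, 8, but spread over 4653 bases, or 1.72 per kilobase. *Fosb* was the poorest of the 9 that held any, with 0.466 per kilobase over 2145 bases. The genes thus ranged from clustered elements to a single pentamer or none.

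**Figure D1:**
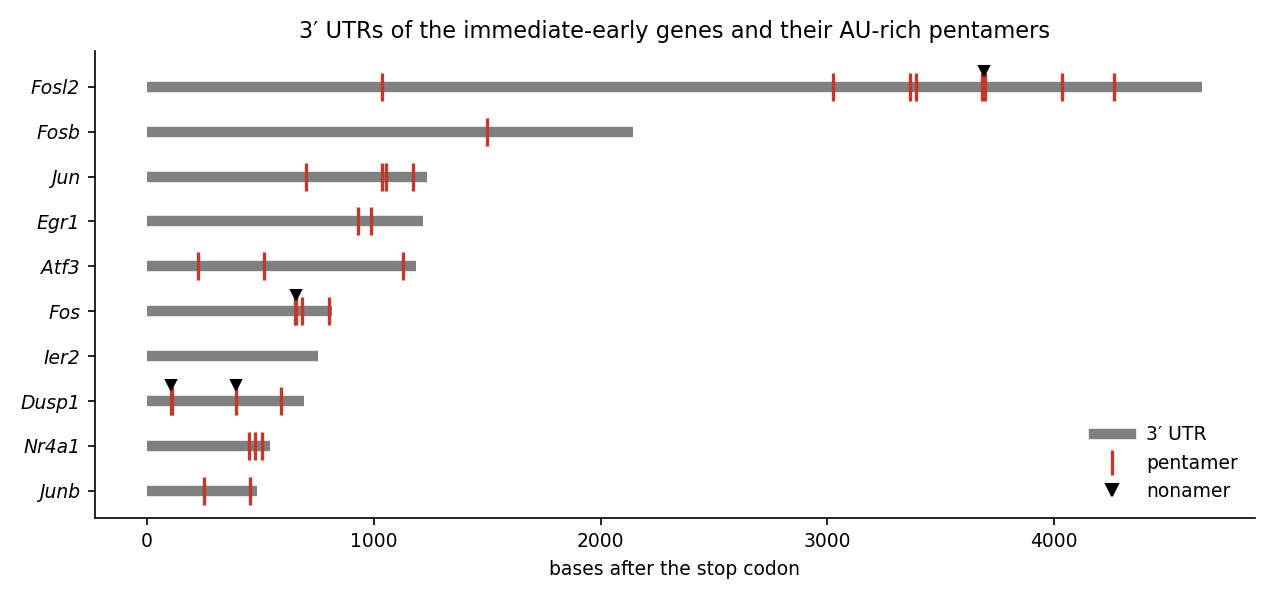
The 3′ UTRs of the 10 genes are drawn to scale in bases after the stop codon (horizontal axis), with red ticks for pentamers and black triangles for nonamers. The longest, that of *Fosl2*, has 4653 bases and 8 pentamers, *Dusp1* has 4 pentamers and 2 nonamers within 690 bases, and *Ier2* has none in 755.

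At the other end of these genes, promoters of 250 bases before to 50 after the transcription start were taken from RefSeq (GRCm38.p6), where 8 of the 10 matched an entry and *Egr1* and *Ier2* did not. The cAMP response element is the binding sequence of CREB, a factor activated by cAMP and calcium. Its full form TGACGTCA, searched on both strands, was in the promoter of *Dusp1* and in 1.79% of 32851 promoters. The variant TGACGTAA was in that of *Atf3* and in 0.499% of promoters. The core TGACG, which is part of both, was in 6 of the 8, those of *Fos*, *Fosb*, *Junb*, *Atf3*, *Nr4a1* and *Dusp1*, and in 20.8% of all. A CArG box, CC followed by 6 bases of A or T and GG, which serum response factor binds, was in none of the 8 windows and in 1.63% of promoters. Sequence more than 250 bases before the start was not searched, so boxes further away would be missed. The elements of *Dusp1*, *Atf3* and *Fos* are shown with 10 bases on each side and the element in capitals, on the strand of the gene.
Dusp1: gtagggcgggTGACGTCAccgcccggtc
Atf3: attaatagcaTTACGTCAgcctgggatt
Fos: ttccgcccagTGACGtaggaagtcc
They lie at chr17:26508598-26508625, chr1:191183326-191183353 and chr12:85473814-85473838, and their first capital is 143, 10 and 66 bases before the start of the gene. The letters in these windows are a description and no measure of binding.

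Expression was deposited as FPKM, fragments scaled to gene length and to a size set for each library. This scaling lets levels of different genes be set side by side. Multiplied by gene length, 100% of the values came out as whole reads (tolerance 0.05 read), with implied library sizes between 15731223 and 18085944 reads. Reads on genes were 1.004 to 1.047 times this size in Ctrl and 0.937 to 0.992 times in cKO. The size is thus not the plain total of reads on genes, and how it was set is not stated. The number of reads behind a value ranged from 85, for *Atf3* in Ctrl replicate 2, to 18500, for *Fos* in cKO replicate 2, so the counting error was small beside the differences between samples for all but the lowest values. The FPKM of *Parn* itself was 4.97, 4.61 and 6.15 in cKO, all below the 6.64, 8.34 and 7.38 of Ctrl, and its log2 fold change was -0.44 (SE 0.131, limma adjusted p = 0.545). The reads on *Parn* include those of exons outside the deleted one and of cells other than β cells. Samples differed in the markers of other cells. Acinar enzyme genes, 7 markers of the exocrine pancreas, summed to FPKM between 5732 and 16061 in Ctrl and between 7234 and 26811 in cKO. Leukocyte markers summed to 606 in Ctrl replicate 1, where *Lyz2* of macrophages was at 539, and to between 34.9 and 76.0 in the other samples. Markers of endothelial cells summed to between 101 and 114 in Ctrl and between 123.1 and 155 in cKO, with higher means for 5 of 6 genes, and those of stromal cells to between 7.96 and 15.9 in Ctrl and between 13.3 and 39.7 in cKO, with higher means for 6 of 6. *Ins2* took 20.2% to 22.7% of the reads in Ctrl and 14.7% to 17.6% in cKO. Markers of β cells, the insulin genes included, summed to between 234546 and 274956 in Ctrl and between 193706 and 215896 in cKO, without overlap. The insulin genes made up most of these sums. Means were lower for 7 of 8 genes, but only 2 of the 8, *Ins2* and *Iapp*, were lower without overlap, beside 6.03% of all genes. The high levels of β cell markers go with the label islet. In such bulk samples, fewer cells of a type and less RNA per cell cannot be told apart.

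Most of the immediate-early genes were among the most abundant transcripts of the islet samples. The mean FPKM of *Fos* over the 6 samples exceeded that of 99.6% of 14926 protein-coding genes, and those of *Junb*, *Egr1*, *Jun*, *Ier2* and *Dusp1* exceeded 97.7% to 99.3%. *Nr4a1* exceeded 95.2% and *Fosb* 94.5%. *Atf3* was lower, above 68.9% of coding genes, and *Fosl2* lay above 32.01%. In Ctrl the order by mean FPKM was *Fos* at 344 ± 50.4 (SD, n = 3), *Junb* at 205 ± 27.4, *Egr1* at 139 ± 43.0, *Ier2* at 101 ± 7.50, *Jun* at 94.9 ± 2.96, *Dusp1* at 87.1 ± 14.6, *Fosb* at 48.6 ± 15.8, *Nr4a1* at 47.9 ± 12.5, *Atf3* at 8.59 ± 5.46 and *Fosl2* at 1.95 ± 0.427. The ranges of neighbours in this order did not overlap in Ctrl at 4 steps, from *Fos* to *Junb*, from *Dusp1* to *Fosb*, from *Nr4a1* to *Atf3* and, by 2.51 against 2.44, from *Atf3* to *Fosl2*. At the other steps the ranges of their Ctrl values overlapped, although *Junb* exceeded *Egr1*, and *Egr1* exceeded *Ier2*, within each of the 3 samples. In cKO the mean of *Jun* (130.3 ± 33.8) stood above those of *Egr1* (121 ± 10.3) and *Ier2* (113 ± 14.2), with overlapping values.

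**Figure D2:**
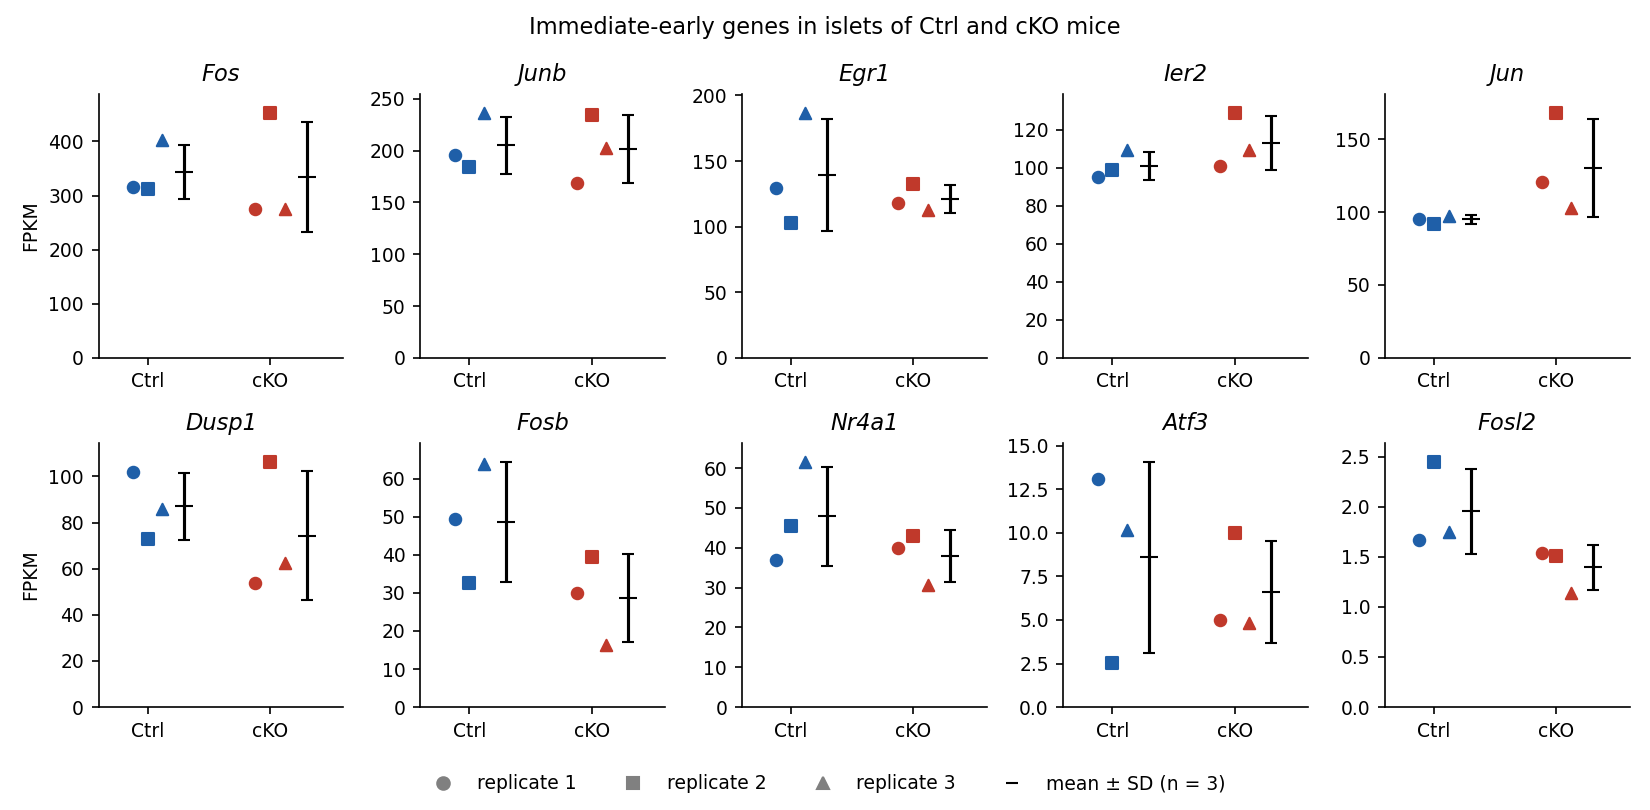
FPKM of each immediate-early gene (vertical axes from 0, scaled per gene) in Ctrl (blue) and cKO (red), with 1 symbol per sample and the mean ± SD (n = 3) as black bars. Samples of the groups do not overlap for *Jun*, from 91.7 to 97.6 in Ctrl and from 102 to 168 in cKO, and for *Fosl2*, from 1.66 to 2.44 and from 1.14 to 1.53, and overlap for the other 8.

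The comparison of cKO with Ctrl asks whether deletion of *Parn* in β cells is accompanied by other levels of these transcripts. For none of the 10 genes did the difference pass the test. None had an adjusted p under 0.05 by limma over 21211 genes, a fit in which 0% of genes passed in either direction, with a smallest adjusted p of 0.274. None had an unadjusted p under 0.05 either, which 4.33% of all genes had as higher in cKO (919 genes) and 3.07% as lower (651 genes). With FPKM rescaled to the reads on all genes, these were 1404 and 377 genes, and *Jun* was among the former. With *Ins1* and *Ins2* left out of those reads they were 878 and 640, and none of the 10 was among them. The adjusted p of the 10 genes ran from 0.689 to 0.979. Means were lower in cKO for 8 genes and higher for *Jun* and *Ier2*, beside a lower mean for 53.5% of all genes tested. *Fos* and *Junb*, near 0, changed sign on the rescaling to all reads but not on that without the insulin genes. The median log2 fold change was -0.17 for the 10 genes and -0.01 for all genes. Summed over the 10 genes, the Ctrl samples had a mean FPKM of 1078 ± 159 (SD) and the cKO samples of 1049 ± 231, a difference well within the spread. The log2 scale is that of log2(FPKM + 1), which shrinks the change of genes with a low FPKM. With a pseudocount of 0.1 in place of 1, *Fosl2*, the lowest of the 10, was at -0.45 in place of -0.30. The smallest p that an exact permutation test, two-sided, can give with 3 samples per group is 0.1.

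**Figure D3:**
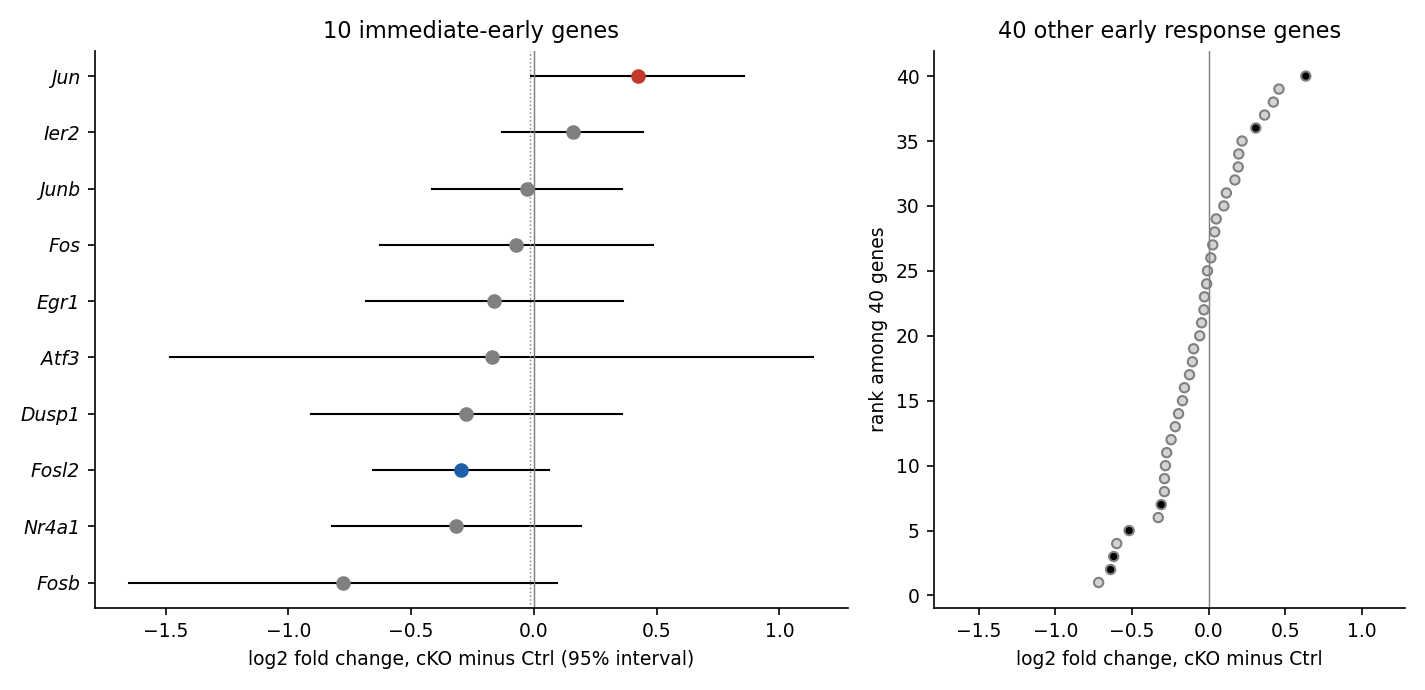
Log2 fold change of cKO over Ctrl on the log2(FPKM + 1) scale (horizontal axes), with 95% limma intervals for the 10 immediate-early genes on the left and points for 40 other early response genes, by rank, on the right. On the left, coloured points mark genes without overlap of the groups (red higher, blue lower) and the dotted line the median of all genes; every interval on the left includes 0, from *Fosb* at -0.78 to *Jun* at 0.42, and black points on the right are the 6 genes at an unadjusted p under 0.05.

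The *Fos* family encodes the partners of Jun proteins in the dimeric transcription factor AP-1. *Fos* (ENSMUSG00000021250, plus strand of chromosome 12 from 85473890 to 85477273) had FPKM values of 317, 313 and 402 in Ctrl, and of 276, 452 and 275 in cKO. The highest and the lowest values were both in cKO, and the Ctrl values lay between them. The log2 fold change was -0.07 (SE 0.231, 95% interval -0.63 to 0.48, limma adjusted p = 0.966), and its sign turned to 0.02 when FPKM was rescaled to the reads on all genes. It was -0.075 when *Ins1* and *Ins2* were left out of those reads. Scaling by the median ratio gave -0.07, but its factors ran only from 0.999 to 1.001, so this value could hardly differ.

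*Fosb* (ENSMUSG00000003545, minus strand of chromosome 7 from 19302696 to 19310051), whose protein also dimerises with Jun proteins, was at 49.3, 32.5 and 64.0 in Ctrl and 30.1, 39.4 and 16.4 in cKO. The means were 48.6 ± 15.8 and 28.6 ± 11.6 (SD, n = 3 each), and of the cKO samples only replicate 2 lay above the lowest Ctrl sample. This was the largest difference among the 10, with a log2 fold change of -0.78 (SE 0.363, 95% interval -1.65 to 0.10, limma adjusted p = 0.700, exact permutation p = 0.2). Its direction held in each of the alternative analyses, between -1.04 and -0.40.

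*Fosl2* (ENSMUSG00000029135, plus strand of chromosome 5 from 32135801 to 32157842), which encodes the Fos-related protein Fra-2, was at 1.66, 2.44 and 1.75 in Ctrl and 1.53, 1.51 and 1.14 in cKO. Every cKO sample was below every Ctrl sample, with 199 to 372 reads behind each value. Of all genes, 6.03% were without overlap in this direction, and 1 of the 10 was. The log2 fold change was -0.30 (SE 0.149, 95% interval -0.66 to 0.06, limma adjusted p = 0.720), and the exact permutation p was 0.1.

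*Jun* (ENSMUSG00000052684, minus strand of chromosome 4 from 95049034 to 95052222) encodes the central subunit of AP-1, and was the 1 gene of the 10 with every cKO sample above every Ctrl sample, which 7.11% of all genes were. Its values were 95.4, 91.7 and 97.6 in Ctrl and 120.4, 168 and 102 in cKO. The Ctrl samples lay close together, and the cKO samples spread from just above them to far above. The log2 fold change was 0.42 (SE 0.181, 95% interval -0.01 to 0.86, limma adjusted p = 0.689, exact permutation p = 0.1). The value without cKO replicate 2 was 0.23, and that without cKO replicate 3 was 0.58, at an unadjusted p under 0.05. *Junos*, an antisense gene that overlaps *Jun* over 689 bases, had a mean FPKM of 0.381.

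*Junb*, a Jun protein that often weakens AP-1 activity of c-Jun, was at 195, 184 and 236 in Ctrl and 169, 234 and 202 in cKO. The groups overlapped widely, with a log2 fold change of -0.03 (SE 0.161, 95% interval -0.42 to 0.36, limma adjusted p = 0.979). The sign turned to 0.06 on rescaling to the reads on all genes, but the value was -0.03 when the insulin genes were left out of those reads. Scaling by the median ratio, which hardly alters these FPKM, also gave -0.03. *Junb* shares 351 bases with *Prdx2* on the other strand, at a mean FPKM of 39.0, and the counting is not stated to use strand.

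Other transcription factors of the early response are *Egr1*, *Atf3* and *Nr4a1*. *Egr1*, a zinc finger factor induced by growth factors and glucose, was at 129, 102 and 187 in Ctrl and 118, 133 and 113 in cKO. All cKO values lay inside the Ctrl range, with a log2 fold change of -0.16 (SE 0.218, 95% interval -0.68 to 0.36, limma adjusted p = 0.897). *Atf3*, a stress-induced member of the ATF and CREB family, was at 13.1, 2.51 and 10.2 in Ctrl and 4.99, 9.99 and 4.85 in cKO. It spread more than any of the other 9, by 5.22-fold from the lowest to the highest sample, and Ctrl replicate 2 alone set the lower end. Its interval was the widest, with a log2 fold change of -0.17 (SE 0.545, 95% interval -1.48 to 1.14, limma adjusted p = 0.965), which was -0.79 without Ctrl replicate 2 and turned to 0.22 without Ctrl replicate 1 and to 0.05 without Ctrl replicate 3. *Nr4a1*, the orphan nuclear receptor Nur77, was at 36.8, 45.4 and 61.4 in Ctrl and 39.9, 43.0 and 30.5 in cKO. The groups overlapped, with a log2 fold change of -0.32 (SE 0.212, 95% interval -0.82 to 0.19, limma adjusted p = 0.820).

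*Ier2* encodes a small nuclear protein of the early response and is the member without a pentamer. It was at 95.01, 98.7 and 109 in Ctrl and 101, 129 and 109 in cKO. It was the steadiest of the 10, with 1.36-fold between the lowest and the highest sample and a log2 fold change of 0.16 (SE 0.119, 95% interval -0.13 to 0.44, limma adjusted p = 0.820). *Dusp1*, a phosphatase that switches off MAP kinases and so limits the response that induces it, was at 102, 73.0 and 86.0 in Ctrl and 53.9, 106 and 62.6 in cKO. cKO replicate 2 was the highest of all samples while the other cKO samples were the lowest, and the log2 fold change was -0.28 (SE 0.264, 95% interval -0.91 to 0.36, limma adjusted p = 0.840). Without cKO replicate 2 it was -0.56, at an unadjusted p under 0.05, and without cKO replicate 1 it was -0.08.

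The spread among samples of one genotype was wide for these genes. The residual SD of log2(FPKM + 1) within genotypes was above 0.166, the median of the 13363 genes at a mean FPKM of 1 or more, for 9 of the 10. It reached 0.842 for *Atf3* and 0.557 for *Fosb*, and was 0.145 for *Ier2*. The spread was shared between genes. cKO replicate 2 was the highest cKO sample for 9 of the 10 genes, all but *Fosl2*, and Ctrl replicate 3 was the highest Ctrl sample for 7. Over all 6 samples, the highest value was in Ctrl replicate 3 for 4 genes and in cKO replicate 2 for 4, and the lowest in cKO replicate 3 for 4 and in Ctrl replicate 2 for 3. The median deviation of the 10 genes from their mean over the samples, on the log2 scale, was -0.02, -0.12 and 0.25 for Ctrl and -0.18, 0.24 and -0.29 for cKO. The 10 genes took 0.297%, 0.253% and 0.358% of the reads on genes in Ctrl and 0.268%, 0.389% and 0.253% in cKO. Both genotypes thus held a sample with high and samples with lower levels.

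The summed acinar markers ran the other way. They were at 8981, 16061 and 5732 in Ctrl and 26811, 7234 and 22214 in cKO, so that within each genotype they were lowest in the sample where the immediate-early genes were highest. All 7 acinar genes had a higher mean in cKO, none of them at an unadjusted limma p under 0.05. With the mean log2 level of the acinar genes as a covariate, chosen after seeing these values, the log2 fold change of *Jun* was 0.61 (limma adjusted p = 0.692) and that of *Ier2* 0.28 (limma adjusted p = 0.835). Both were at an unadjusted p under 0.05, which in this fit 757 of all genes had as higher and 494 as lower. The median over the 10 genes was 0.09 in place of -0.17. The α cell markers were also uneven and summed to 11076, 12482 and 16342 in Ctrl, and to 8753, 16308 and 12793 in cKO, highest in the same pair of samples. The leukocyte markers, high in Ctrl replicate 1, did not follow this order. The endothelial sums were higher in every cKO than in every Ctrl sample, as *Jun* was. The acinar covariate was picked from these same samples, and its genes had higher means in cKO, so its fit is no test of the part of acinar cells. The part of other cell types in the levels of the immediate-early genes was not tested.

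**Figure D4:**
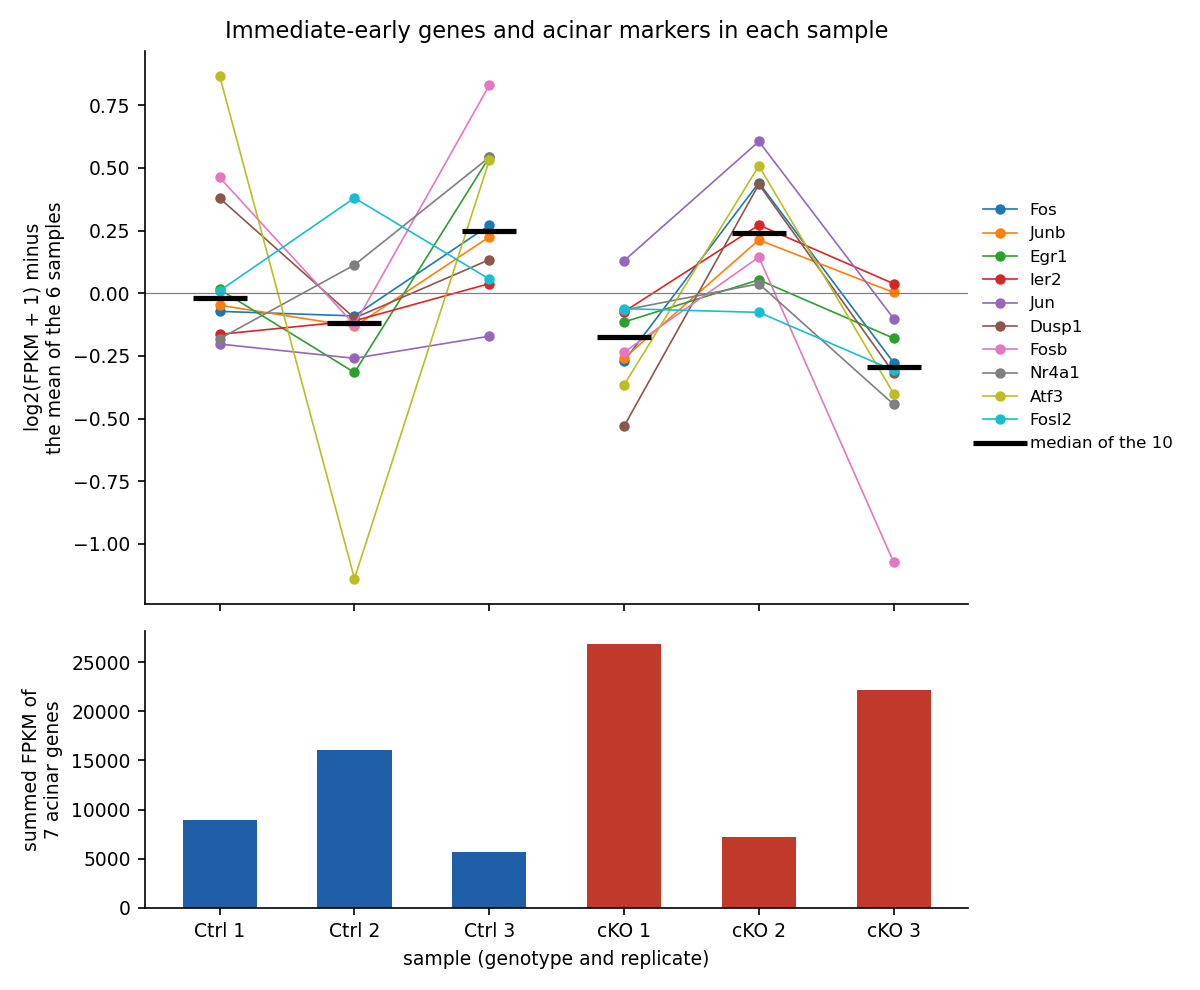
In the upper panel, the deviation of each immediate-early gene from its mean over the 6 samples (vertical axis, log2(FPKM + 1)), with thin lines that join the points of a gene within a genotype only to identify it and black bars for the median. In the lower panel, the summed FPKM of 7 acinar genes (bars from 0); the medians are highest in Ctrl replicate 3 and cKO replicate 2, where the acinar sums of 5732 and 7234 are the lowest of their genotype.

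Since the 10 genes varied together, each was also set against the others of the same sample, as a description chosen after seeing the data. Relative to the mean log2 level of the other 9, *Jun* was at 0.78, 1.03 and 0.60 in Ctrl and 1.47, 1.499 and 1.35 in cKO. The cKO samples lay close together on this scale and apart from Ctrl, by 0.64. *Fosb* was at -0.27, -0.60 and -0.07 in Ctrl and -0.72, -0.79 and -1.51 in cKO, lower by 0.69 and without overlap. The other 8 overlapped on this scale, *Fosl2* included. In FPKM, the ratio of *Jun* to *Fos* was 0.301, 0.293 and 0.243 in Ctrl and 0.437, 0.371 and 0.373 in cKO. The ratio of *Jun* to *Junb* was 0.488, 0.498 and 0.413 in Ctrl and 0.714, 0.717 and 0.506 in cKO. Neither ratio overlapped between genotypes. That of *Fosb* to *Fos*, at 0.156, 0.104 and 0.159 in Ctrl and 0.109, 0.0871 and 0.0596 in cKO, did. So did that of *Fosb* to *Junb*, at 0.252, 0.176 and 0.271 in Ctrl and 0.178, 0.168 and 0.0808 in cKO. How many other genes or pairs of genes lack overlap on these scales was not counted. A ratio within a sample is free of the scaling of that sample, but shows only that the values of these genes differed unequally between the samples. None of the 10 passed the test, and *Jun* and *Fosb* each enter the mean that the other is set against.

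The wider early response was described with 40 other early response genes, all of which were tested. Means were higher in cKO for 15 and lower for 25, with a median log2 fold change of -0.05. None passed an adjusted p of 0.05. At an unadjusted p under 0.05, 2 were higher and 4 lower, beside 4.33% and 3.07% of all genes. *Cyr61*, a secreted matrix protein induced by growth factors, had an FPKM from 7.64 to 7.89 in Ctrl and from 9.78 to 14.7 in cKO, for a log2 fold change of 0.63 (SE 0.149, limma adjusted p = 0.431). *Rhob*, a small GTPase with a short-lived transcript, had a log2 difference of 0.31 (limma adjusted p = 0.673). *Csrnp1*, a nuclear protein of the early response, was at 8.27, 5.22 and 6.20 in Ctrl and 4.03, 3.61 and 3.93 in cKO (log2 fold change -0.62, SE 0.158, limma adjusted p = 0.475). The kinase gene *Plk3* was at 12.3, 14.2 and 19.5 in Ctrl and 11.6, 7.73 and 9.02 in cKO (log2 fold change -0.64, limma adjusted p = 0.549). *Nfkbiz*, a nuclear regulator of NF-κB, and *Maff*, a small Maf factor, had log2 fold changes of -0.52 and -0.31 (limma adjusted p = 0.659 and 0.671). Without overlap between genotypes, 3 of the 40 were higher in cKO, *Cyr61*, *Rhob* and *Ctgf*, beside 7.11% of all genes. Another 3, *Csrnp1*, *Plk3* and *Maff*, were lower without overlap, beside 6.03% of all genes. *Ctgf* was not at an unadjusted p under 0.05, and *Nfkbiz* overlapped. The part of the endothelial and stromal cells, whose marker sums were higher in cKO as given above, in the values of *Cyr61* and *Rhob* was not tested. The most abundant of the list, the antiproliferative gene *Btg2*, was at 152, 133 and 160.1 in Ctrl and 143, 204 and 168 in cKO (log2 fold change 0.20, limma adjusted p = 0.820).

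Upstream of these genes stand MAP kinases, CREB, serum response factor and its cofactors. Of 22 such kinases and factors, 12 had a higher and 10 a lower mean in cKO, with a median log2 fold change of 0.02, and none was at an unadjusted p under 0.05. The most abundant, *Mapk3*, which encodes the kinase ERK1, had a log2 fold change of 0.03 (SE 0.124, limma adjusted p = 0.975). Downstream, 23 genes of deadenylation and of decay of AU-rich transcripts, *Parn* among them, had a median log2 fold change of -0.06, with 17 lower and 6 higher means. Of all genes, 53.5% had a lower mean. *Parn* and *Btg1*, an adaptor of the CCR4-NOT deadenylase, were lower at an unadjusted p under 0.05, beside 3.07% of all genes, and none passed the adjusted threshold. *Btg1* was at 41.5, 32.3 and 38.4 in Ctrl and 30.3, 28.2 and 27.9 in cKO (log2 fold change -0.36, SE 0.108, limma adjusted p = 0.545). *Parn* was chosen by the design as the deleted gene, so its place in this count is no result.

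Stress of the tissue also induces heat shock and inflammatory genes. Of 14 heat shock and stress genes, 11 had a lower mean in cKO and 3 a higher, with a median log2 fold change of -0.15. A lower mean was found for 53.5% of all genes. Only *Hspb1*, a small heat shock protein, was at an unadjusted p under 0.05, which 4.33% of all genes had as higher. Its values were 11.6, 6.84 and 7.23 in Ctrl and 11.6, 13.8 and 13.2 in cKO (log2 fold change 0.57, limma adjusted p = 0.583). *Hsp90ab1*, the most abundant, had a log2 difference of -0.15 (limma adjusted p = 0.820). Of 11 inflammatory early genes, 8 had a lower and 3 a higher mean, with none at an unadjusted p under 0.05. Their summed FPKM was highest in Ctrl replicate 1 at 109, the sample with the high leukocyte markers, against 38.3 to 65.1 in the other samples. *Nfkbia*, the inhibitor of NF-κB and the most abundant of them, was at 61.7, 31.7 and 55.8 in Ctrl and 35.7, 35.6 and 31.0 in cKO (log2 fold change -0.48, limma adjusted p = 0.724). Of the immediate-early genes, 1 (*Atf3*) had its highest value of the 6 samples there.

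Genes that followed the same order of samples were sought among the 13353 further genes at a mean FPKM of 1 or more, by Pearson's r over the 6 samples with the mean standardised level of the 10. The most alike were *A430033K04Rik* (r = 0.994), *Dzank1* (r = 0.990), *Tob2* (r = 0.985), *Gm42470* (r = 0.975) and the pseudogene *Rpl30-ps1* (r = 0.967), whose reads may be shared with its parent gene. *Tob2*, which encodes an adaptor of CCR4-NOT, was at 3.66, 3.51 and 4.30 in Ctrl and 3.44, 4.13 and 3.32 in cKO. With 6 samples and so many genes, high values of r are found for many genes, and 9.30% of them had r above 0.5. Of 35 other early response genes that could be ranked, 9 did, among them *Plk2* with r = 0.961 and *Socs3* with r = 0.871, which were picked after seeing their values. These values share libraries and depth with the 10 genes and are a description.

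The AU-rich elements were also set against the change of all genes, since 9 of the 10 hold a pentamer and 3 a nonamer. Genes with at least 1 nonamer in the 3′ UTR, 1047 of them, had a median log2 fold change of 0.003, as against -0.009 for the 13583 without. At an unadjusted p under 0.05, 4.58% of those with a nonamer were higher in cKO and 2.197% lower, and of those without 4.74% and 2.62%. For genes with at least 3 pentamers the median was 0.006 (4990 genes) and for those with none -0.024 (5031 genes). At an unadjusted p under 0.05, 5.29% of the former were higher in cKO and 2.10% lower, and of the latter 4.09% and 3.24%. The middle range of the genes without a nonamer ran from -0.12 to 0.10. It describes the spread of genes and not the error of a median, and the differences between these classes were not tested. Within the 10, *Jun* with 4 pentamers had the highest and *Fosb* with 1 the lowest log2 fold change, while *Fosl2* with 8 lay at -0.30 and *Ier2* with none at 0.16.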

How the data were processed

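Total RNA of mouse islets was extracted with Trizol, and libraries were made with a SMARTER mRNA kit. The authors deposited FPKM for every gene in each sample (reads divided by gene length and by a size set for each library), with coordinates of GRCm38 (mm10 in the submitters' processing notes). The aligner and counter are not given in the sources used here. The authors compared genotypes with DESeq2 and report many genes as up- or downregulated in cKO islets, while none passed the adjusted threshold here. DESeq2 needs counts and was not run here, so these outcomes come from unlike tests. Reads were read back from FPKM and gene length and served for depth and for an alternative only. Ctrl and cKO were compared on log2(FPKM + 1) with limma 3.58.1 in R 4.3.3 (moderated two-sided test with a mean-variance trend, adjusted by Benjamini and Hochberg) over the 21211 genes whose mean FPKM was 0.1 or more. Exact permutation tests used scipy 1.17.1, and figures Python 3.11.15 with matplotlib 3.10.9. The code was tested on simulated data.

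The 10 genes and the gene lists were chosen with earlier results of these data known. Named genes are the 10, *Parn* and the insulin genes, of each pathway list those at an unadjusted p under 0.05 (at most 6) and the most abundant, and the 5 most alike. Names outside this rule were chosen after their values were seen. Of each gene, the principal coding transcript of the GENCODE annotation gave the 3′ UTR. Besides 16 alternatives listed at the outset, 2 were chosen after seeing the data. LACE-seq was not analysed here.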

Additional observations from a re-analysis of the deposited data

How the results depend on the processing

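In 17 alternatives that refit the comparison, *Jun* and *Ier2* stayed above 0 (0.23 to 0.61 and 0.06 to 0.28 on the log2 scale) and *Fosb*, *Fosl2* and *Nr4a1* below it, and no adjusted p of the 10 genes was under 0.355. Rescaling FPKM to the reads on genes gave 1404 genes higher and 377 lower at an unadjusted limma p under 0.05 (919 and 651 without it), 1 of the 10 as higher (*Jun*), and positive values for *Fos* (0.016) and *Junb* (0.058). Array weights gave 1267 genes higher and 1245 lower, 1 of the 10 as lower (*Fosl2*), and *Junb* at 0.037 and *Atf3* at 0.326. With voom and TMM on the reads read back, 972 genes were higher and 605 lower, with 1 of the 10 as higher (*Jun*) and 2 as lower (*Fosb*, *Fosl2*). With the acinar covariate, added after seeing the data, 757 genes were higher and 494 lower, with 2 of the 10 as higher and 0 as lower. The median over the 10 was then 0.091, and *Fos*, *Junb*, *Egr1*, *Dusp1* and *Atf3* were at 0.209, 0.142, 0.04, 0.027 and 0.359. Relative to the other 9, also added, *Jun*, *Ier2*, *Fosb*, *Fosl2* and *Nr4a1* kept their sign and *Fos* and *Junb* were at 0.089 and 0.136.

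Leaving out each sample in turn gave 709 to 1251 genes higher and 402 (without cKO replicate 3) to 1173 (without Ctrl replicate 1) lower at an unadjusted p under 0.05, and 0 to 1 higher at an adjusted p under 0.05. Of the 10 genes, 0 to 1 were higher (*Jun*, without cKO replicate 3) and 0 to 2 lower (*Fosb* without Ctrl replicate 2, *Fosb* and *Dusp1* without cKO replicate 2), and the median ran from -0.32 to 0.05. The sign turned for 4 genes, whose values ran from -0.31 to 0.049 for *Fos* (positive without Ctrl replicate 3, cKO replicate 1 or cKO replicate 3), from -0.143 to 0.093 for *Junb* (positive without Ctrl replicate 3 or cKO replicate 1), from -0.359 to 0.07 for *Egr1* (positive without Ctrl replicate 3) and from -0.785 to 0.218 for *Atf3* (positive without Ctrl replicate 1 or Ctrl replicate 3). The causes were not tested.

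Samples with the same number did not deviate together (r = -0.171, -0.022 and -0.065 over genes), and for different numbers r ran from -0.077 to 0.130. These values show no pairing by number, but with 3 samples per group they cannot exclude one. With the replicate block, 737 genes were higher and 538 lower at an unadjusted p under 0.05, none of the 10 among them, and the median over the 10 was -0.17. Depth limits *Atf3*, with 85 to 492 reads, and *Fosl2*, with 199 to 372, more than the other members.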
